A study of Mus musculus with 9 samples.

Results

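The cytoplasmic ribosomal protein genes were followed by RNA sequencing in 9 libraries of organoids, small epithelial fragments cultured from mouse mammary tumours. Members were chosen by name and annotation, with no use of a difference between groups: protein-coding genes named Rpl or Rps with a number, the stalk genes Rplp0, Rplp1 and Rplp2, and Rpsa, with at least 1 CPM (counts scaled to 1000000 per library) in 4 libraries. Of the 51912 genes in the table, 89 carried such a name, 6 of them annotated as pseudogenes, and 80 of the 83 protein-coding ones reached the level. The 3 left under it were paralogs of large subunit genes. Rpl3l reached at most 0.0668 CPM and Rpl39l at most 0.951 CPM, and Rpl10l had 0 counts in every library, which allows up to 0.0668 CPM in the smallest one. The 80 members comprised 31 genes of the small subunit, 43 of the large subunit, the 3 stalk genes and 3 paralogs, Rpl7l1, Rpl22l1 and Rps27l. They lay on 19 chromosomes.

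All libraries came from mice of the FVB/NJ strain with MMTV::PyMT, which drives a viral oncogene from a mammary tumour virus promoter, and with (R26)pCA::mT/mG, a fluorescent reporter of Cre activity. The 4 WT samples were Cdh1+/+ and the 5 E-cad-KO samples Cdh1fl/fl, where Cdh1 encodes the adhesion protein E-cadherin. Organoids of both groups received adeno-Cre overnight, so the controls were exposed to virus and Cre as well, and then spent 48 h in collagen I with b-FGF2. Adeno-Cre acts in any cell that it enters, and no age of the mice was given in the sources used here. The study compared the groups once, to describe how expression differs when E-cadherin is targeted in tumour organoids. No animal is named for any sample, and p-values therefore refer to the variation among these 9 samples.

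A ribosome contains one copy of nearly every ribosomal protein, and cells make these proteins in balanced amounts. Many ribosomal protein mRNAs begin with a cytosine followed by a run of pyrimidines, the terminal oligopyrimidine (TOP) sequence, through which the kinase complex mTORC1 and the RNA-binding protein Larp1 control how strongly they are translated. Ribosomal proteins left over from assembly can act elsewhere: Rpl5 and Rpl11, bound to the 5S ribosomal RNA, inhibit Mdm2, the ubiquitin ligase that degrades p53.

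RefSeq promoters (GRCm38.p6) were available for 60 of the 80 members, and the start of transcription was read there on the gene's own strand for a C at the first base followed by at least 4 bases that are C or T. In 13 of the 60 members (21.7%) an annotated start had this pattern, against 3.01% of the 27025 genes with a promoter. The starts of the members that recur in the results are shown, with 15 bases before the start and 15 from it, and with the pyrimidine run in capitals. They are Rps21 at chr2:180257364-180257393 (+), Rpl35a at chr16:33056467-33056496 (+), Rps18 at chr17:33955651-33955680 (-), Rps27 at chr3:90213634-90213663 (-), Rps6 at chr4:86857353-86857382 (-) and Rplp2 at chr7:141447636-141447665 (+). Rpl15, at chr14:18270972-18271001 (-), is added for having the longest run, 13 bases.
Rps21: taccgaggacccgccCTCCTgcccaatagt
Rpl35a: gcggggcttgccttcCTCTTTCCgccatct
Rps18: tacgtcacttccgctCTCTCTTCCacagga
Rps27: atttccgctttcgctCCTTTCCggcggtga
Rps6: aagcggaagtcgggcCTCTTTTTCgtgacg
Rplp2: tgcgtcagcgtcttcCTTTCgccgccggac
Rpl15: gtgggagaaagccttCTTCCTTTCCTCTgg
The other 6 were Rpl14, Rpl28, Rpl35, Rpl38, Rps10 and Rps15a. A match describes these letters at an annotated start and does not show where transcription began in the organoids. Nor does a start without the pattern show that the mRNA lacks a TOP sequence, since the C had to fall on the annotated base.

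Library totals ran from 44890302 to 64763645 counts, so that 1 CPM was 44.9 counts in the smallest library. Means are given ± SD over the 4 WT or the 5 E-cad-KO libraries. Cdh1 averaged 189 ± 44.1 CPM in the WT libraries and 91.3 ± 15.5 CPM in the others, without overlap, with an adjusted p of 0.0275 by the quasi-likelihood test of edgeR. Its adjusted p rose to between 0.0644 and 0.0904 when WT 3 or any 1 of the E-cad-KO libraries 1, 3, 4 and 5 was left out. Of 17289 genes tested, edgeR called 87 lower and 157 higher in E-cad-KO at an adjusted p under 0.05. With upper-quartile size factors in place of the default TMM factors these became 151 lower and 123 higher. WT 1 and WT 4 stood at opposite ends of the WT group for the ribosomal protein genes, as described beside the results.

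The ribosomal protein genes took a smaller share of the mRNA counts in E-cad-KO organoids. They held 9.64%, 8.34%, 8.67% and 8.07% of the counts in WT 1 to 4, and 7.17%, 7.71%, 7.79%, 7.38% and 7.29% in E-cad-KO 1 to 5. Every E-cad-KO library lay below every WT library. The mean share fell from 8.68 ± 0.684% (SD, n = 4) to 7.47 ± 0.269% (SD, n = 5), a difference of -1.21 percentage points. Small subunit genes went from 3.56 ± 0.284% to 3.05 ± 0.117%, and large subunit genes from 4.56 ± 0.383% to 3.93 ± 0.151%. The balance between the subunits differed by less than the WT spread, with 1.28 ± 0.0112 large subunit counts per small subunit count in WT and 1.29 ± 0.00878 in E-cad-KO. In RNA from whole gels, a smaller number of cells of one type and less mRNA per cell cannot be told apart.

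As a mean over genes on a log scale, in which each member counts equally, the set was also lower in E-cad-KO on average, but the groups overlapped. A score, the mean over the 80 genes of log2 CPM after TMM scaling and centring of each gene, was 0.36, 0.11, 0.12 and -0.02 in WT 1 to 4. It was -0.19, -0.02, -0.01, -0.15 and -0.18 in E-cad-KO 1 to 5, so that the mean went from 0.14 ± 0.16 (SD, n = 4) to -0.11 ± 0.09 (SD, n = 5). WT 4 fell at the level of E-cad-KO 2 and E-cad-KO 3, and WT 1 lay well above the rest.

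**Figure D1:**
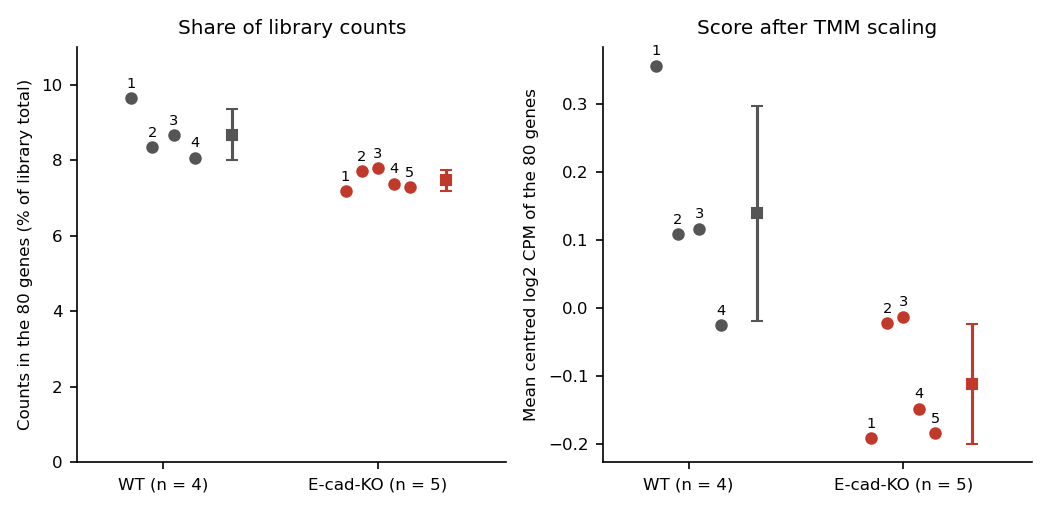
Left, the share of each library's counts held by the 80 ribosomal protein genes (percent, axis from 0); right, their mean centred log2 CPM after TMM scaling. Points are libraries numbered by replicate, squares with bars are means ± SD of 4 WT and 5 E-cad-KO libraries; the shares do not overlap (lowest WT 8.07%, highest E-cad-KO 7.79%), while in the score WT 4 (-0.02) meets E-cad-KO 2 and 3.

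The small shift was shared by the whole set. All 80 members had a negative log2 fold change in E-cad-KO, beside 52.0% of all genes tested. Their median was -0.26, a level 0.835 times that of WT, and the middle members ran from -0.29 to -0.23 (quartiles), against a median of -0.01 over all genes tested. The extremes were Rps18 at -0.36 and Rps2 at -0.09. Since the members rise and fall together from library to library, the 80 signs are not separate observations.

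By edgeR only Rps21 passed the threshold, so 1 of 80 members was called lower and 0 higher, where 0.503% of all genes tested were called lower. An unadjusted edgeR p under 0.05 with a lower level was found for 68 of the 80, beside 7.99% of all genes, and with a higher level for none. In 23 of the 80 every E-cad-KO library lay below every WT library, beside 3.83% of all genes. The number of calls depended on the test more than the fold changes did: DESeq2 called 33 members lower (2.85% of all genes) and limma-voom 11 (1.24%), with medians of -0.26 from both. None of the tools called a member higher.

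**Figure D2:**
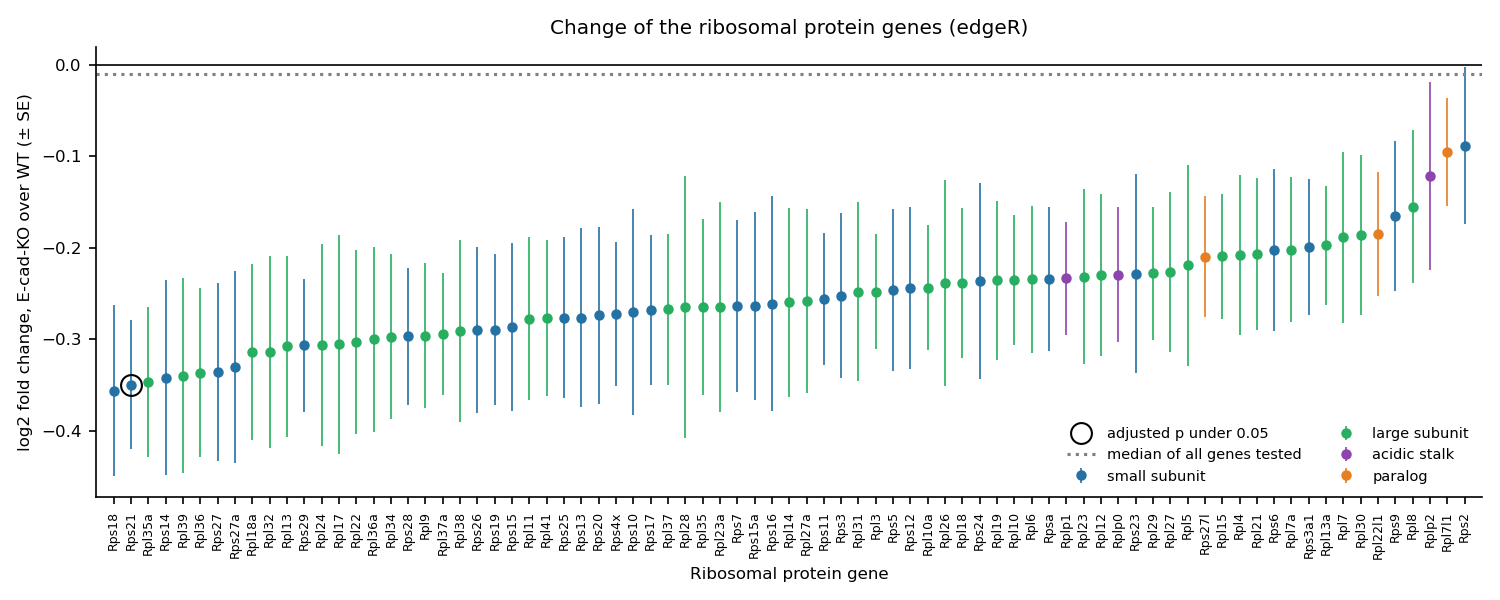
log2 fold change (E-cad-KO over WT, edgeR, ± SE) of 79 of the 80 ribosomal protein genes, ordered by size and coloured by role; the solid line is 0 and the dotted line the median of all genes tested (-0.01). Every point lies below 0, from Rps18 (-0.36) to Rps2 (-0.09), and Rps21 (ring) is the single one with an adjusted p under 0.05.

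Rps21 (ENSMUSG00000039001, GRCm38 chr2:180257377-180258445, plus strand), which encodes a small protein of the small subunit, measured 599, 525, 538 and 542 CPM in WT 1 to 4. It measured 438, 466, 453, 382 and 423 CPM in E-cad-KO 1 to 5. All E-cad-KO libraries were below the lowest WT library. Its mean fell from 551 ± 32.8 to 432.5 ± 32.4 CPM, a log2 fold change of -0.35 (SE 0.07) with an edgeR adjusted p of 0.0421. The call was near the threshold. Leaving out WT 1, 2 or 3 gave adjusted p-values of 0.0819, 0.0726 and 0.12, and leaving out E-cad-KO 1 to 5 in turn gave 0.0981, 0.0604, 0.0899, 0.08 and 0.0972, all by edgeR. Without WT 4 it was 0.0474, and once transcript length and GC content were offset it was 0.208 at a log2 fold change of -0.22.

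The 9 members next in order of p had edgeR adjusted p-values from 0.059 to 0.0934 and did not overlap between the groups. Rpl37a, a zinc-binding protein of the large subunit, measured 799, 718, 730.5 and 696 CPM in WT 1 to 4, against 580.1, 650.3, 633, 562 and 575 CPM in E-cad-KO 1 to 5, a log2 fold change of -0.29 (SE 0.07, edgeR adjusted p = 0.059). Rpl35a, one of the genes mutated in the inherited anaemia named after Diamond and Blackfan, measured 335, 282, 280.0 and 261 CPM in WT, against 222, 247, 243.5, 206 and 221 CPM in E-cad-KO. WT 1 was the highest library and E-cad-KO 4 the lowest for both genes. Rpl35a had a log2 fold change of -0.35 (SE 0.08, edgeR adjusted p = 0.0673). Rps29, another gene of that anaemia, had one of -0.31 (SE 0.07, edgeR adjusted p = 0.0676). Rps28 (-0.30), Rps18 (-0.36), Rpl9 (-0.30), Rplp1 (-0.23) and Rpl3 (-0.25) were also among the 9. Rpl3 reaches close to the peptidyl transferase centre, where peptide bonds form. Exons of Rps28 overlap Kank3, and those of Rps18 overlap Vps52, on the other strand, and whether counting used the strand was not given in the sources used here.

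The 31 small subunit genes had a median log2 fold change of -0.27. Of these, 27 had an unadjusted edgeR p under 0.05 (7.99% of all genes lower), 1 was called (0.503%) and 10 did not overlap (3.83%). Rpsa, the laminin receptor precursor that also sits in the small subunit, measured 3228, 2768, 2835 and 2575 CPM in WT, against 2206, 2526, 2540, 2474 and 2377 CPM in E-cad-KO. Its groups did not overlap, and it had a log2 fold change of -0.23 (SE 0.08, edgeR adjusted p = 0.168). Rps6, the protein phosphorylated by the S6 kinases downstream of mTORC1, measured 1652, 1412, 1400 and 1222 CPM in WT and from 1119 to 1311 CPM in E-cad-KO. WT 4 lay inside the E-cad-KO range, with a log2 fold change of -0.20 (SE 0.09, edgeR adjusted p = 0.28). Rps27a, made as a fusion with ubiquitin, was at 1385 ± 246.5 CPM in WT but 1102 ± 50.06 CPM in E-cad-KO (log2 fold change -0.33). WT 1 was the highest library, at 1737 CPM, and WT 4, at 1166 CPM, lay inside the E-cad-KO range. Rps2 was the least changed, at 532 ± 55.8 and 500.5 ± 40.1 CPM (edgeR adjusted p = 0.666), and was singled out after its values were seen.

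The 43 large subunit genes had a median log2 fold change of -0.26. None was called by edgeR (0.503% of all genes lower), while 37 had an unadjusted p under 0.05 (7.99%) and 11 did not overlap (3.83%). DESeq2 called 15 of the 43 (2.85% of all genes lower) and limma-voom 5 (1.24%). Rpl5, Rpl11 and Rpl23, which can bind Mdm2, had log2 fold changes of -0.22, -0.28 and -0.23. Rpl5 measured 1850, 1500, 1407 and 1219 CPM in WT and between 1150 and 1360 CPM in E-cad-KO, so WT 4 was among the E-cad-KO libraries (edgeR adjusted p = 0.352). Rpl11 measured 1247, 1040, 1018 and 933 CPM in WT and between 810 and 950.5 CPM in E-cad-KO (edgeR adjusted p = 0.149). The 6 genes at the rim of the tunnel through which the new peptide leaves (Rpl19, Rpl23a, Rpl26, Rpl31, Rpl35 and Rpl39) had a median of -0.26. Of these 6, 5 had an unadjusted edgeR p under 0.05 (7.99% of all genes lower) and 0 were without overlap (3.83%). The 15 genes mutated in Diamond-Blackfan anaemia, which belong to both subunits, had a median of -0.27. Of them 12 had an unadjusted edgeR p under 0.05 (7.99% of all genes lower) and 5 did not overlap (3.83%). By edgeR none of the 15 was called (0.503% of all genes lower), by DESeq2 8 (2.85%) and by limma-voom 3 (1.24%).

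The acidic stalk recruits the elongation factors to the ribosome, with Rplp0 as its base and Rplp1 and Rplp2 as its arms. Rplp0 measured 3016, 2746, 2688 and 2434 CPM in WT, against 2142, 2358, 2388, 2395 and 2323 CPM in E-cad-KO, without overlap (log2 fold change -0.23, SE 0.07, edgeR adjusted p = 0.149). Rplp1 measured 1825, 1568, 1664 and 1712 CPM in WT, against 1368, 1443, 1493, 1448 and 1445 CPM in E-cad-KO, also without overlap (log2 fold change -0.23, SE 0.06, edgeR adjusted p = 0.09). Rplp2 overlapped between the groups. It measured 786, 657, 742 and 539.5 CPM in WT, against 571, 640.1, 675, 629 and 616 CPM in E-cad-KO, with WT 4 below all E-cad-KO libraries. It had a log2 fold change of -0.12 (SE 0.10, edgeR adjusted p = 0.61), and whether it differs from those of Rplp0 and Rplp1 was not tested.

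The 3 paralogs departed from the common order of the libraries, in which WT 4 was the lowest of the WT group. So did Rps21, Rplp1, Rpl38, Rpl24 and Rpl13a. Rps27l, a relative of Rps27 known as a p53 target, measured 217, 189, 189.5 and 223 CPM in WT and between 169 and 189.9 CPM in E-cad-KO (log2 fold change -0.21, edgeR adjusted p = 0.142). Rpl22l1 measured 164, 148, 141 and 153 CPM in WT and between 119.7 and 144 CPM in E-cad-KO (log2 fold change -0.18, edgeR adjusted p = 0.202). Rpl7l1 was at 209.8 ± 14.9 CPM in WT but 196.5 ± 7.90 CPM in E-cad-KO (log2 fold change -0.09, edgeR adjusted p = 0.464). The groups overlapped in all 3. Their highest WT libraries differed, being WT 4 for Rps27l, WT 1 for Rpl22l1 and WT 2 for Rpl7l1. The level of each paralog relative to its main gene was compared per kilobase of coding transcript. Rps27l stood at 18.7%, 19.2%, 19.8% and 26.4% of Rps27 in WT 1 to 4, and at 22.7 ± 1.35% in E-cad-KO. Rpl22l1 stood at 22.3 ± 2.76% and 24.1 ± 3.09% of Rpl22, and Rpl7l1 at 4.52 ± 0.701% and 4.78 ± 0.435% of Rpl7. The differences of the log2 ratios were 0.12, 0.11 and 0.09 (exact permutation p = 0.286, 0.317 and 0.556, two-sided, adjusted over 3 ratios 0.476, 0.476 and 0.556). The smallest p that 4 against 5 libraries allow is 0.0159, and no difference in these ratios was detected.

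**Figure D3:**
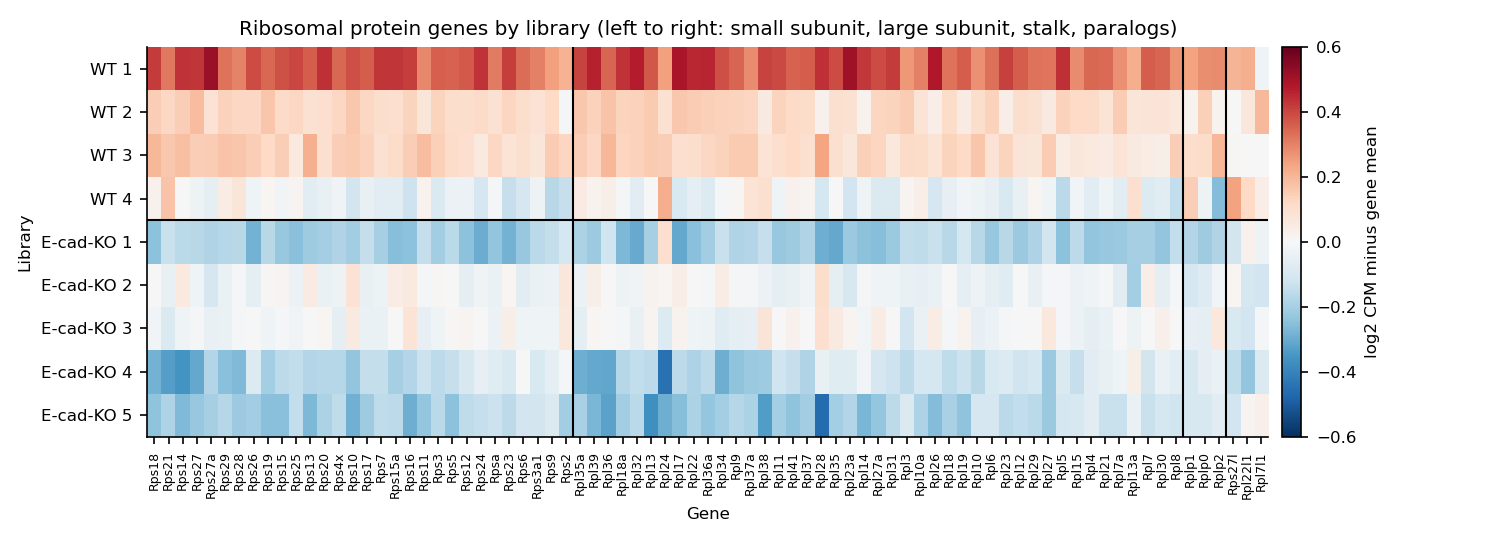
log2 CPM of each ribosomal protein gene minus its mean over the 9 libraries (colour, log2 scale), with libraries as rows and 79 of the 80 genes as columns grouped by role. WT 1 is the highest WT library in 78 of 80 genes and WT 4 the lowest in 72. WT 4 is not the lowest in the paralogs at the right, nor in Rps21, Rplp1, Rpl38, Rpl24 and Rpl13a.

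Members varied together across libraries as well as between groups. Over the 3160 pairs of members the median Pearson correlation of log2 CPM across the 9 libraries was 0.926, and 81.7% of pairs exceeded 0.8. After the group means were removed the median was still 0.877. These correlations describe points that share libraries, depth and scaling. Members that followed the mean of the others least were Rpl7l1 (0.212), Rpl22l1 (0.586), Rpl24 (0.629), Rps27l (0.676) and Rpl13a (0.69). Within WT, library 1 was the highest for 78 of 80 members and library 4 the lowest for 72. Within E-cad-KO, libraries 2 and 3 were the highest for 37 members each, and libraries 1, 5 and 4 the lowest for 39, 23 and 16. The highest of all 9 libraries was a WT library for all 80 members, and the lowest was an E-cad-KO library for 77.

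The 2 extreme WT libraries pulled the comparison in opposite directions. Without WT 1 the median log2 fold change was -0.17 and edgeR called 0 members (0.194% of all genes), with 40 at an unadjusted p under 0.05 (7.52% of all genes lower) and groups apart in 23 (5.93%). In 37 of the 80 members the value without WT 1 was smaller than that with all libraries by over 1.5 times. It was -0.09 for Rpl5, -0.12 for Rps6 and -0.04 for Rplp2. Without WT 4 the value of 2 members was larger by that much, and without any other single library at most 1 member moved so far. Without WT 4 the median was -0.31, and edgeR called 5 members, among them Rps21, Rpl3, Rpl35a and Rps29 (0.806% of all genes were called lower), with 78 at an unadjusted p under 0.05 (9.02%) and groups apart in 70 of 80 (7.2%). Without both the median was -0.21, with 0 called (0.174% of all genes) and 60 at an unadjusted p under 0.05 (6.59%) by edgeR. The WT libraries also differed in markers of cell types, those of luminal epithelium among them. The macrophage score, from 12 marker genes of which 10 were lower in E-cad-KO and 0 called (0 also at an unadjusted edgeR p under 0.05, and 0 by DESeq2 and limma-voom), was -1.69, -0.72, 0.38 and 2.12 in WT 1 to 4. It was -0.59, -0.83, -0.87, 0.86 and 1.33 in E-cad-KO 1 to 5, with no marker at 0. The summed markers ran from 381.6 to 546.4 CPM in WT and from 346.9 to 416.1 CPM in E-cad-KO, a sum held largely by Cd14, which was at 365 CPM in WT 1 and 167 CPM in WT 4. The other 11 summed to 18.02, 41.0, 95.4 and 379.8 CPM in WT 1 to 4 and to between 26.7 and 158.8 CPM in E-cad-KO. With that score as a covariate the median of the ribosomal protein genes was -0.26 and 46 members were called lower (2.63% of all genes), all by edgeR. The score of 5 basal epithelial markers ran from 0.68 in WT 1 to -0.74 in WT 4, and from 0.48 in E-cad-KO 3 to -0.70 in E-cad-KO 5, with summed levels of 2502 to 12470 CPM in WT and 3645 to 8406 CPM in E-cad-KO and none at 0. The part of the basal markers in the lower level of the ribosomal protein genes was not tested. The 7 luminal markers summed to 3294 to 4521 CPM in WT and 3947 to 5020 CPM in E-cad-KO. Their score was 0.128, 0.115, -0.0381 and -0.41 in WT 1 to 4 and between -0.105 and 0.266 in E-cad-KO. The luminal markers did not move together. Krt8, a keratin of luminal cells, had a log2 fold change of 0.39 without overlap (edgeR adjusted p = 0.053) and was called higher by DESeq2 and limma-voom. Its partner Krt18 (0.30, edgeR adjusted p = 0.12) was called higher by DESeq2, while Elf5, a transcription factor of the luminal lineage, was called lower by both (-0.38, edgeR adjusted p = 0.103). All 5 endothelial markers tested had negative values, with a median of -0.94. Of these, 0 were called by edgeR or limma-voom and 2 had an unadjusted edgeR p under 0.05 (7.99% of all genes lower). One of them, Pecam1, an adhesion protein of vessel walls, was called lower by DESeq2, from 5.69 ± 1.06 to 3.62 ± 0.836 CPM. The 9 fibroblast markers, 6 of them with negative values, had 0 called by edgeR, DESeq2 or limma-voom. Their score was -1.38, -0.479, 0.739 and 1.09 in WT 1 to 4 and between -0.502 and 0.282 in E-cad-KO. The part of the luminal, endothelial and fibroblast markers in the lower level of the ribosomal protein genes was not tested either. Of 8 T and B cell markers none reached the test, with at most 0.228 CPM in any library and Cd3e at 0.

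Levels of the mRNAs differed far more among the members than between the groups. Per kilobase of coding transcript the median member was at 1194 CPM, against 8.20 CPM for the median of 14195 coding genes, and 59 members were among the 100 genes with the highest levels per kilobase. The highest per kilobase were Rplp1 at 3110 CPM, Rpl41, which encodes the shortest ribosomal protein, at 2901 CPM and Rpl23a at 2779 CPM. Between Rplp1 and Rpl41 the WT means per kilobase, 3391 ± 215 and 3212 ± 322 CPM (SD, n = 4), did not differ beyond their spread, nor did that of Rpl23a, 3064 ± 590.2 CPM. This order depended on the length used: per kilobase of protein-coding sequence Rpl41 was first, at 22510 CPM against 4537 CPM for Rplp1, and Rpl23a was not among the first 5. The lowest were Rpl24 at 26.1 CPM, Rpl7l1 at 77.7 CPM and Rpl13a at 84.9 CPM per kilobase, 3 members under 100 CPM where 52 exceeded 1000 CPM. Exons of Rpl24 overlap the gene Gm28037 on the same strand, and those of Rpl13a overlap Gm45713, and both of these were listed at 0 counts in all libraries. Rpl24 had 625 to 1221 counts a library and Rpl13a 3832 to 6060. Whether reads of the shared exons were left uncounted was not tested, and the levels of these 2 genes are uncertain.

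**Figure D4:**
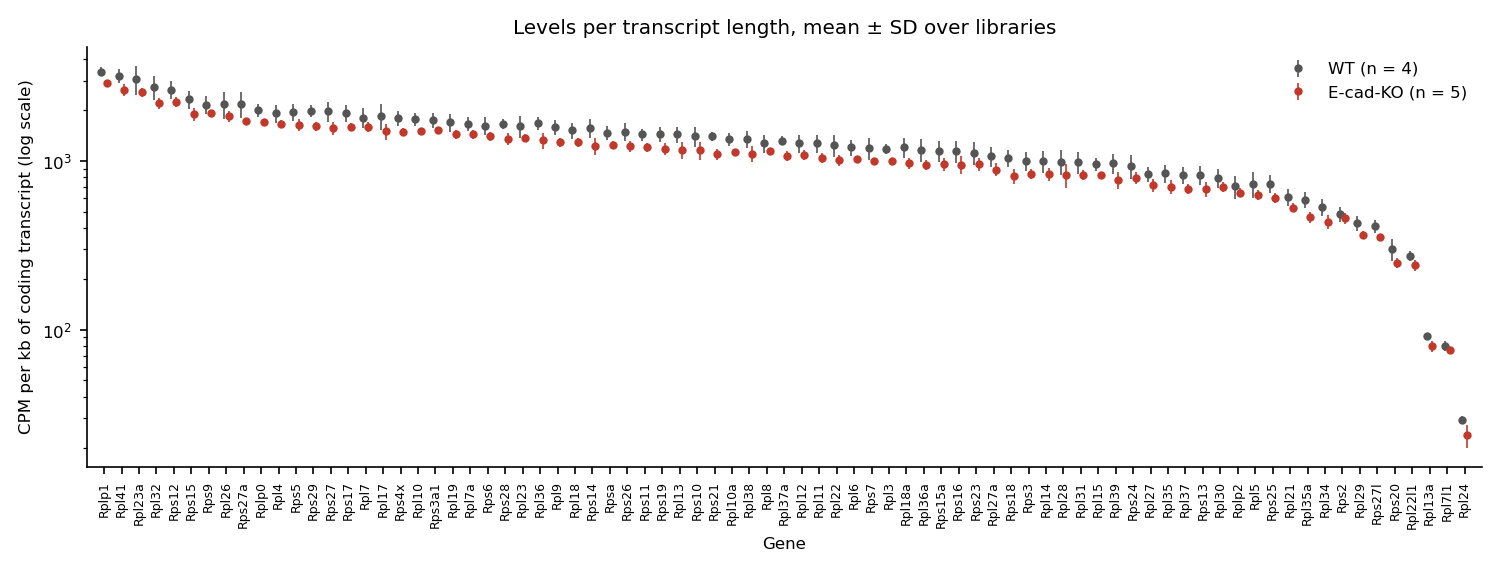
Level of 79 of the 80 ribosomal protein genes in CPM per kilobase of its coding transcript (log axis), as mean ± SD over 4 WT and 5 E-cad-KO libraries, ordered from Rplp1 (3110 over all libraries) to Rpl24 (26.1). The E-cad-KO point lies under the WT point in every gene, by much less than the spread among genes.

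Near-identical copies of ribosomal protein genes can take reads from them. Transcripts with at least 95% identity over at least 50% of the member's coding transcript were found for 58 members, 395 copies in all. Together their counts came to between 3.07% and 3.37% of the members' own. In 6 members they exceeded 10% of the member's counts, with the most in Rps18 (130%), Rps2 (97.3%) and Rpl24 (73.0%). Adding the copies gave log2 fold changes of -0.32 for Rps18, -0.02 for Rps2 and -0.25 for Rpl24, so the values of these 3 are uncertain. The median over the 80 was then -0.26.

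Shorter members had the more negative values. Across the 80 members the correlation of log2 fold change with log2 coding transcript length was 0.466, and with mean log2 CPM 0.0509, given as descriptions of genes that share libraries. The coding transcripts were short, with a median of 768 bases against 2876 for coding genes tested, and 1 member exceeded the latter. Offsets in each library were fitted for the length and GC content of the longest annotated transcript, not of the coding transcript. With these offsets all 80 values stayed negative, with a median of -0.18. By edgeR 0 members were then called (0.307% of all genes lower) and 34 had an unadjusted p under 0.05 (6.13% lower). Members with the TOP pattern had a median log2 fold change of -0.27 (from -0.36 to -0.12) and the 47 with a promoter but without it -0.24 (from -0.34 to -0.09), which overlap widely.

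Other genes of translation and of ribosome assembly had medians nearer to 0, and the difference between lists was not tested. Of 19 translation factors and related genes known for TOP mRNAs, 16 had negative values, with a median log2 fold change of -0.11. None was called by edgeR or limma-voom, and DESeq2 called 1 lower, Eef1b2 (2.85% of all genes). At an unadjusted edgeR p under 0.05, 2 of the 19 had a lower level, a share near the 7.99% of all genes. Eef1b2, an exchange factor of elongation, went from 961 ± 95.1 to 819 ± 39.1 CPM (log2 fold change -0.23, SE 0.07, edgeR adjusted p = 0.149). Eif3l and Eif3h, subunits of the initiation factor eIF3, had values of -0.15 and -0.18 (edgeR adjusted p = 0.19 and 0.301). Among ribosomal proteins whose names fall outside the rule, Fau measured 709.5 ± 117 and 568 ± 69.5 CPM (log2 fold change -0.32, edgeR adjusted p = 0.208), and Rack1 2476 ± 324 and 2125 ± 95.5 CPM (-0.22, edgeR adjusted p = 0.237).

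In the genes that process ribosomal RNA and assemble ribosomes the signs were mixed. Of 30 tested, 13 were negative and 17 positive, with a median log2 fold change of 0.02 that became -0.02 with upper-quartile factors. Rrs1, an assembly factor of the large subunit, was the single gene called by edgeR and it was higher (0.908% of all genes were called higher). It measured 23.6, 29.2, 26.2 and 25.6 CPM in WT, against 34.7, 31.0, 35.2, 33.4 and 36.7 CPM in E-cad-KO, without overlap. It had a log2 fold change of 0.39 (SE 0.08, edgeR adjusted p = 0.0405). That p was 0.0395 without WT 2 and between 0.0534 and 0.121 when any other library was left out, and 0.0514 with upper-quartile factors. Bysl, which acts in small subunit assembly, had a log2 fold change of 0.38 (edgeR adjusted p = 0.0592, with exons that overlap Ccnd3 on the other strand), and Nop2, an RNA methyltransferase of the nucleolus, 0.27 (edgeR adjusted p = 0.0808). DESeq2 (4.13% of all genes called higher) and limma-voom (1.7%) called Rrs1, Bysl, Nop2 and Ddx21 higher. In all, 6 of the 30 had a higher level at an unadjusted edgeR p under 0.05, where 8.74% of all genes did, and 0 a lower one.

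The 12 genes of RNA polymerase I had a median log2 fold change of 0.01, or -0.02 with upper-quartile factors. None was called by edgeR, DESeq2 or limma-voom and 0 had an unadjusted edgeR p under 0.05. Of 20 genes of mTORC1 and translation signalling, 15 had positive values with a median of 0.07. None was called by the 3 tools. At an unadjusted edgeR p under 0.05, 2 of the 20 had a higher level, a share near the 8.74% of all genes, namely Eif4g1 (0.17, edgeR adjusted p = 0.226) and Mtor (0.16, edgeR adjusted p = 0.278). Mycn, which is the point at 0.63 in the plot of related lists and was singled out after its value was seen, was at 0.179 ± 0.126 and 0.278 ± 0.153 CPM. The mRNAs encoded in mitochondria, which are translated by a different ribosome, had a median of -0.11 with 12 of 13 negative and 0 called by the 3 tools. Their levels were uneven: WT means were 1.45 CPM for mt-Co3, 1.63 for mt-Co2, 2.37 for mt-Nd3 and 5.92 for mt-Nd4l. That of mt-Co1 was 28080 CPM. Why some were so low was not tested, and their values are uncertain. At an unadjusted edgeR p under 0.05, 1 of the 13 was lower, mt-Nd1, a share near the 7.99% of all genes. With the length and GC offsets their median was 0.04 with 4 of 13 negative.

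**Figure D5:**
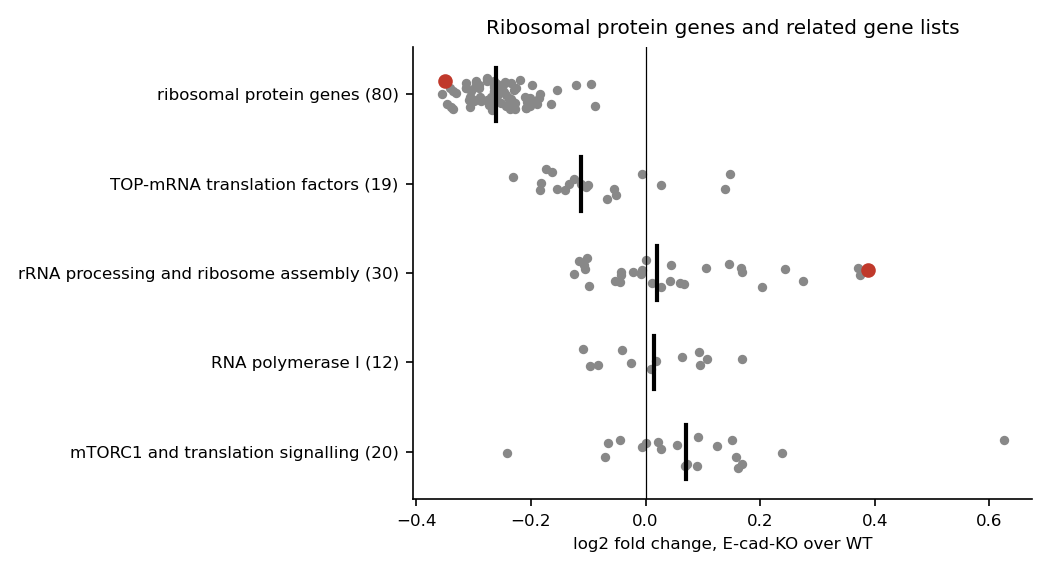
log2 fold change (E-cad-KO over WT, edgeR) of the ribosomal protein genes and of 4 related gene lists, with each point a gene, the number of genes tested in brackets, black bars the medians and red points an adjusted p under 0.05 (Rps21, lower, and Rrs1, higher). The ribosomal protein genes lie wholly below 0 (median -0.26), the TOP-mRNA translation factors mostly so (-0.11), and the other lists on both sides of 0.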

How the data were processed

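Whole collagen gels were frozen, their RNA was purified with RNeasy, and a TruSeq stranded kit that selects mRNA gave the libraries, per the labels' protocols. The authors deposited raw counts per gene, made with Bowtie2, TopHat2 and HTSeq on GRCm38, per the submitters' processing notes. The tool versions, annotation release and strand setting were not given in the sources used here. Reads that match several places may have been dropped or split, which bears on genes with near-identical copies. All 9 value columns belonged to samples, and 51633 of 51912 gene IDs had a symbol.

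The counts were tested with edgeR 4.0.16 in R 4.3.3, by its quasi-likelihood F-test (TMM factors, filterByExpr, robust dispersions, group as the only term), with Benjamini-Hochberg adjustment over the 17289 genes tested, two-sided. All 80 members passed the filter. Genes with an adjusted p under 0.05 were called. CPM values use TMM-scaled library sizes, except for the rule of at least 1 CPM. A standard error is the log2 fold change divided by the square root of F. Scores use log2 CPM with a prior count of 2. Positions, overlaps and lengths came from GENCODE release M21. Levels per kilobase use the coding transcript (CCDS first). The plan named the longest transcript, which for many members retains introns and is given as an alternative.

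The members and lists were chosen with earlier results of these data known. Named were members called or of smallest p up to 10, the 3 highest and 3 lowest per kilobase, paralogs with their main genes, Rplp0, Rplp1, Rplp2, Rpsa, Rps6, Rps27a, Rpl5, Rpl11, up to 3 genes of smallest p in each related list, and Cdh1. Further names complete a group described or are said to be chosen later. Of the markers listed, 9 fibroblast genes summed to 66.7 to 370.7 CPM in WT and 135.1 to 228.5 CPM in E-cad-KO, and 5 endothelial genes to 5.18 to 10.7 and 3.58 to 6.35 CPM. Of 5 adipocyte genes 1 was tested (3.40 to 38.3 and 2.33 to 7.90 CPM). Alternatives were other size factors (among them TMM factors computed without the members), other filters, DESeq2 1.42.0, limma-voom (limma 3.58.1), the replicate number as a block, non-robust dispersions, offsets for length and GC content, a macrophage score as covariate, libraries left out, and counts that include pseudogenes by name. Counts that include near-identical copies were added after seeing the data. The routines were tested on simulated counts. Counts of any 2 libraries differed beyond sampling noise (smallest chi-square per degree of freedom 14.8). In the totals 1 member and 1 related gene are counted that are not reported here by name.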

Additional observations from a re-analysis of the deposited data

Results flagged for a closer look

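Within a group of 4 or 5 libraries, a library was picked out where its gap to the nearest one was a large part of the group's whole range (Dixon's criterion). Of 102 groups of values checked 4 were picked out, and chance alone picks about 1 in 20, or 5.1 of these. Rplp0 was low in E-cad-KO 1, at 2140 CPM, below the other E-cad-KO libraries and all WT libraries. Nop2 was high in WT 4, at 36.5 CPM, inside the E-cad-KO range. In E-cad-KO 5 mt-Nd1 was low, at 6360 CPM. In E-cad-KO 2 Cdh1 was high, at 118 CPM, still below the WT libraries. The causes were not tested.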

How the results depend on the processing

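Over 24 fits, the one reported included, all 1920 values of the 80 members were negative, and their median stayed between -0.31 and -0.17, the range over libraries left out in turn, where the difference in the share of counts ran from -1.42 to -0.894 percentage points. The number called did not hold: it was 8 with upper-quartile factors, 2 with a filter of at least 1 CPM in 4 libraries, 33 with DESeq2, 11 with limma-voom, 46 with the macrophage score as covariate, 0 with length and GC offsets, 0 without WT 1 and WT 4, and from 0 to 5 with each library left out. Over all genes the count of 244 became 274 with upper-quartile factors, 151 of them lower. It became 352 with the filter of at least 1 CPM in 4 libraries, 135 of them lower. It was 1206 with DESeq2, 509 with limma-voom, 1144 with the macrophage score and 150 with the offsets. Without WT 1 and WT 4 it was 79, and with each library left out 9 to 334. The upper values over libraries left out, 5 and 334, came without WT 4. The causes were not tested. Rps21 was called in 13 of the 24 fits, and in 11 fits no member was. With the replicate number as a block, edgeR called 0 members and 0 genes in all, with a median of -0.23. In that fit 29 members had an unadjusted edgeR p under 0.05, and no share over all genes is given for this count. Deviations of same-numbered libraries had correlations of -0.324, 0.235, -0.0303 and 0.284. The labels name no shared batch, and whether same-numbered libraries share more than a number was not tested. The median level per kilobase was 897.7 CPM with the longest transcript and 2004 CPM with the coding sequence alone. For mt-Atp8 the log2 fold change turned from -0.19 to 0.0562 with length and GC offsets. At 44.9 counts per CPM in the smallest library, depth did not limit the members, the lowest of which had 625 counts.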
